A study of Homo sapiens with 30 samples.

Results

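RNA-Seq levels were followed for 10 named genes that limit RAS and MAP kinase signaling: the dual-specificity phosphatases DUSP1, DUSP4, DUSP5, DUSP6 and DUSP10, the Sprouty genes SPRY1, SPRY2 and SPRY4, and the Sprouty-related genes SPRED1 and SPRED2. They were chosen by symbol, with earlier results of these data known. They are 10 of the 26228 genes with FPKM values (fragments per kilobase of transcript and per library size, a level per length). The libraries came from SH-EP (SHEP in the sample labels), a neuroblastoma (NB) cell line whose parental cells carry no exogenous MYC gene, and from 4 stable SH-EP lines made by retroviral transfer of MYCN under an exogenous promoter. These lines carry MYCN WT, MYCN T58A, MYCN S62A or MYCN with both T58A and S62A. T58A and S62A replace phosphorylation sites that control the stability of the MYCN protein. Each of the 5 lines was treated for 6 hours with DMSO (the solvent) or with 1 μM CYC065, an inhibitor of the cyclin-dependent kinases CDK9 and CDK2, and each of the 10 groups has 3 libraries. CDK9 releases paused RNA polymerase II into elongation. Each MYCN genotype is 1 stable line, so a genotype and the history of its line cannot be told apart, and the labels do not say whether the 3 libraries of a group came from separate cultures. The p-values therefore measure the spread between these libraries, which may be technical.

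Growth factor receptors activate RAS, which switches on the kinase chain RAF, MEK and ERK, while stress signals use related chains that end in JNK and p38. ERK signaling induces its own brakes, so that the mRNA of many of these genes is read as a sign of pathway output. The DUSP enzymes remove phosphates from MAP kinases, whereas Sprouty and SPRED proteins act upstream, between the receptor and RAF. In neuroblastoma, RAS and MAP kinase signaling is a known route of relapse.

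FPKM hide a change in total mRNA per cell, because each library is scaled to its own total. The authors added ERCC spike-in RNAs, synthetic transcripts of known amount, by cell number. CYC065 changes were therefore read on FPKM scaled so that the spike-ins matched between libraries. Line differences in DMSO were read on FPKM as deposited, which hide a difference in total mRNA between lines. Spike-in scaled values or counts are given beside them. The values of single libraries are FPKM as deposited unless stated, and an order of lines on that scale need not hold after spike-in scaling. Separate or overlapping ranges of 3 libraries describe these values. They are not a test and are not set against all tested genes. The factor that matched the spike-ins ran from 3.05 to 3.28 in SH-EP in DMSO, from 0.722 to 2.01 in the MYCN lines in DMSO and from 0.260 to 1.44 with CYC065. A lower factor stands for less cellular mRNA beside the median spike-in. In bulk libraries fewer cells and less RNA per cell cannot be told apart. The share of spike-ins in the summed FPKM, another summary, moved by a smaller ratio with CYC065. In SH-EP the median factor went from 3.22 to 1.42 and the median share from 2.08% to 2.81%. In WT they went from 1.28 to 0.421 and from 5.79% to 9.24%. The size of a spike-in scaled change thus depends on the summary chosen. Relative sequencing depth was estimated from the most common ratio of low FPKM values to those of 1 library. With the deepest library set to 1, it was 0.470 to 1 in DMSO and 0.293 to 0.555 with CYC065. MYCN was listed at 0 in all 6 parental libraries and was at 5.08 to 15.7 FPKM in the 12 MYCN libraries in DMSO, which matches the labels. The adrenergic markers PHOX2A and DBH were at 0 in 30 and 29 of the 30 libraries while HAND2 was at 23.1 to 89.3 FPKM, and the mesenchymal markers PRRX1, SNAI2, VIM, FN1 and TWIST1 were above 0 in all of them. The summed FPKM of these 5 mesenchymal markers was 2890 to 2997 in SH-EP in DMSO and 1413 to 2052 in the MYCN lines in DMSO, and their part in the results was not tested. The index sequences in the labels of the SH-EP libraries recur among the MYCN libraries. The sample titles name no sequencing pool. If the pool differed between SH-EP and the MYCN lines, it could not be told apart from the line.

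All 10 genes were expressed above 0 in every library and passed the filter of a mean of 1 FPKM, which 11575 genes passed. In SH-EP in DMSO the order of their levels in deposited FPKM, from the highest, was DUSP10 (23.3 ± 1.14, SD, n = 3), DUSP5 (18.3 ± 0.862), SPRY4 (16.0 ± 0.754), SPRY1 (13.7 ± 0.430), SPRY2 (11.4 ± 1.52), DUSP1 (11.2 ± 0.035), SPRED2 (9.32 ± 0.595), SPRED1 (7.61 ± 0.334), DUSP6 (6.31 ± 0.419) and DUSP4 (3.34 ± 0.139). With CYC065 the order in the same cells was led by SPRY4 (94.9 ± 3.23), and DUSP10 (3.10 ± 0.28) came last. The order was not tested between genes, and the range of the SPRY2 libraries overlapped those of DUSP1 and SPRED2.

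**Figure D1:**
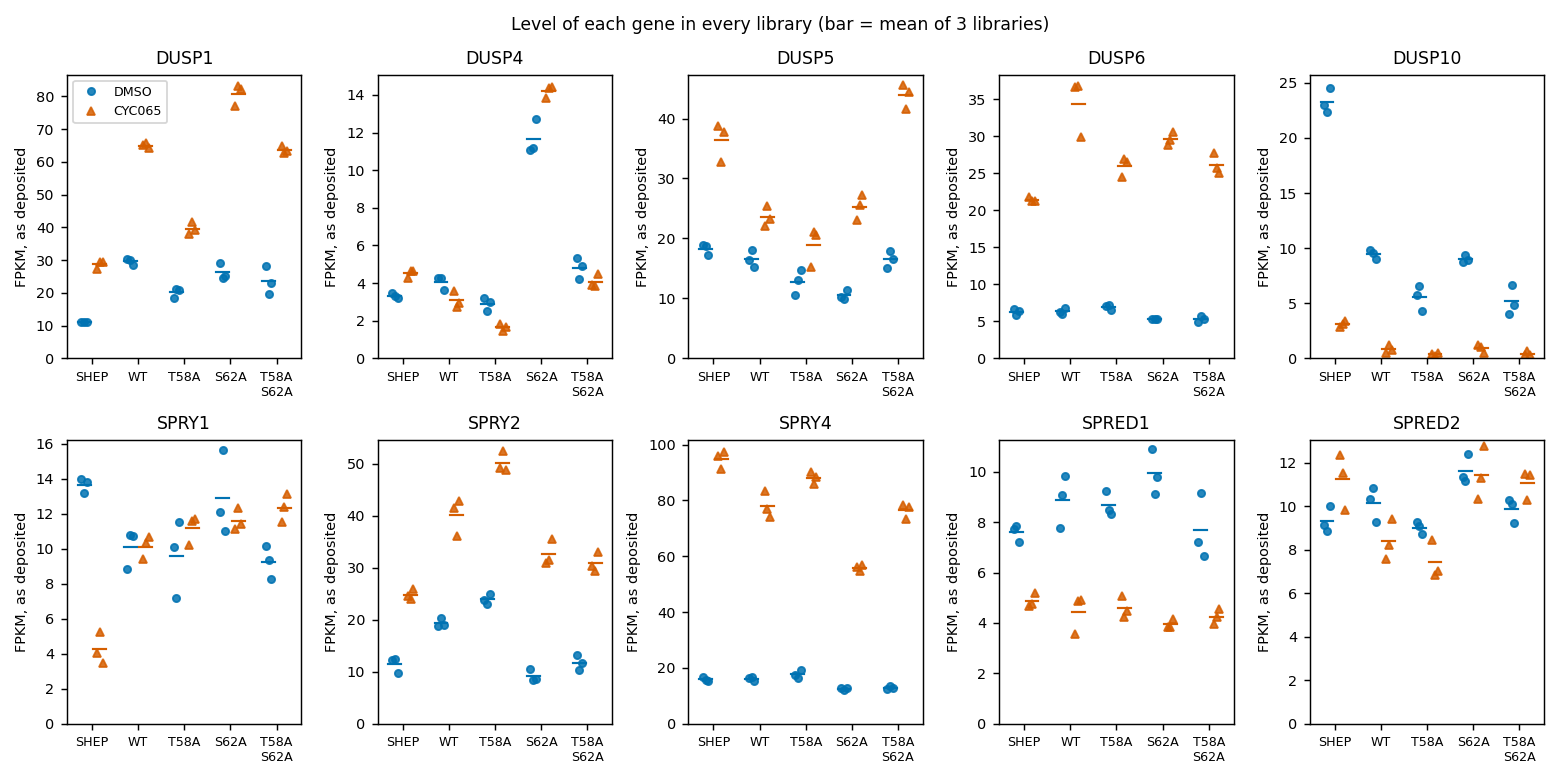
FPKM as deposited (vertical axis) of each of the 10 genes in the 5 lines (horizontal axis), with 1 point for each of 3 libraries in DMSO (blue circles) or CYC065 (orange triangles) and a bar at their mean. DUSP6 and SPRY4 are higher with CYC065 in all 5 lines, DUSP10 and SPRED1 are lower in all 5, and SPRY1 is lower in SHEP.

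DUSP6 and SPRY4 stood against the general loss of mRNA with CYC065. DUSP6 is the cytoplasmic phosphatase specific for ERK, and SPRY4 restrains RAS activation downstream of receptor tyrosine kinases; both are standard readouts of ERK output. In SH-EP, DUSP6 was at 6.71, 5.88 and 6.35 FPKM in DMSO and at 21.8, 21.3 and 21.3 FPKM with CYC065. In the WT line the values were 6.28, 6.02 and 6.84 in DMSO and 36.6, 36.7 and 29.9 with CYC065. The groups did not overlap in either line, and the highest deposited DUSP6 value of the 30 libraries was in the treated WT line. The T58A line went from 7.04, 7.19 and 6.54 to 24.5, 27.0 and 26.5 FPKM, and the S62A line from 5.31, 5.29 and 5.37 to 28.8, 29.4 and 30.6. With both replacements the levels were 4.86, 5.71 and 5.35 in DMSO and 27.8, 25.8 and 25.0 with CYC065. Ranges were again separate in all 3.

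After spike-in scaling DUSP6 was still higher with CYC065 in every line. The log2 change was 0.51 ± 0.18 (SE) in SH-EP (limma adjusted p = 0.0120), 0.73 ± 0.18 in WT (4.29e-04), 0.71 ± 0.18 in T58A (8.42e-04), 0.96 ± 0.18 in S62A (2.37e-05), and it was 1.22 ± 0.18 with T58A and S62A together (1.09e-06). Among all tested genes, between 97.9% and 98.5% had a lower change, depending on the line. Without the SH-EP DMSO library of column number 1, the adjusted p of DUSP6 in SH-EP was 0.0557.

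SPRY4 gave the highest single level of the 10 genes in deposited FPKM. It was at 16.9, 15.8 and 15.4 FPKM in SH-EP in DMSO and at 96.0, 91.2 and 97.4 with CYC065. The WT line had 16.3, 16.6 and 15.4 and then 83.3, 76.9 and 74.1, and the T58A line 17.5, 16.5 and 19.3 and then 90.1, 86.0 and 88.4. No DMSO library reached any CYC065 library. S62A cells moved from 12.9, 12 and 12.6 to 56.0, 54.7 and 56.7 FPKM, the lowest treated level, and T58A S62A cells from 12.3, 13.6 and 12.9 to 78.2, 73.2 and 77.7. On the spike-in scale SPRY4 rose 2.49-fold in SH-EP (log2 1.31 ± 0.19, adjusted p = 8.94e-07), and the log2 change ran from 0.59 in WT (adjusted p = 0.00597) to 1.48 in T58A S62A (adjusted p = 1.61e-07). With only the 21 spike-ins of at least 50 FPKM, an alternative chosen after seeing the data, the SPRY4 change was 0.53 in WT (adjusted p = 0.0582) and 0.35 in S62A (0.208), so both calls were lost, whereas DUSP6 was called higher in all 5 lines. On FPKM as deposited the log2 changes were 2.15 to 2.56 for SPRY4 and 1.75 to 2.45 for DUSP6.

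Few genes did this. The 10 genes were chosen with earlier results of these data known, so their count beside that of all genes is no test of the set. DUSP6 and SPRY4 were 2 of 10 genes called higher in each line on the spike-in scale, where 0.907% of all tested genes were called higher in SH-EP, 0.769% in WT, 1.25% in T58A, 0.968% in S62A as well as 1.85% in T58A S62A. The median log2 change of all tested genes was -1.06 in SH-EP and -1.23 over the mean of the 4 MYCN lines. As deposited, where that median was 0.15 and 0.08, calls of higher level covered 42.7% of tested genes in SH-EP and 37% to 38.8% in the MYCN lines.

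**Figure D2:**
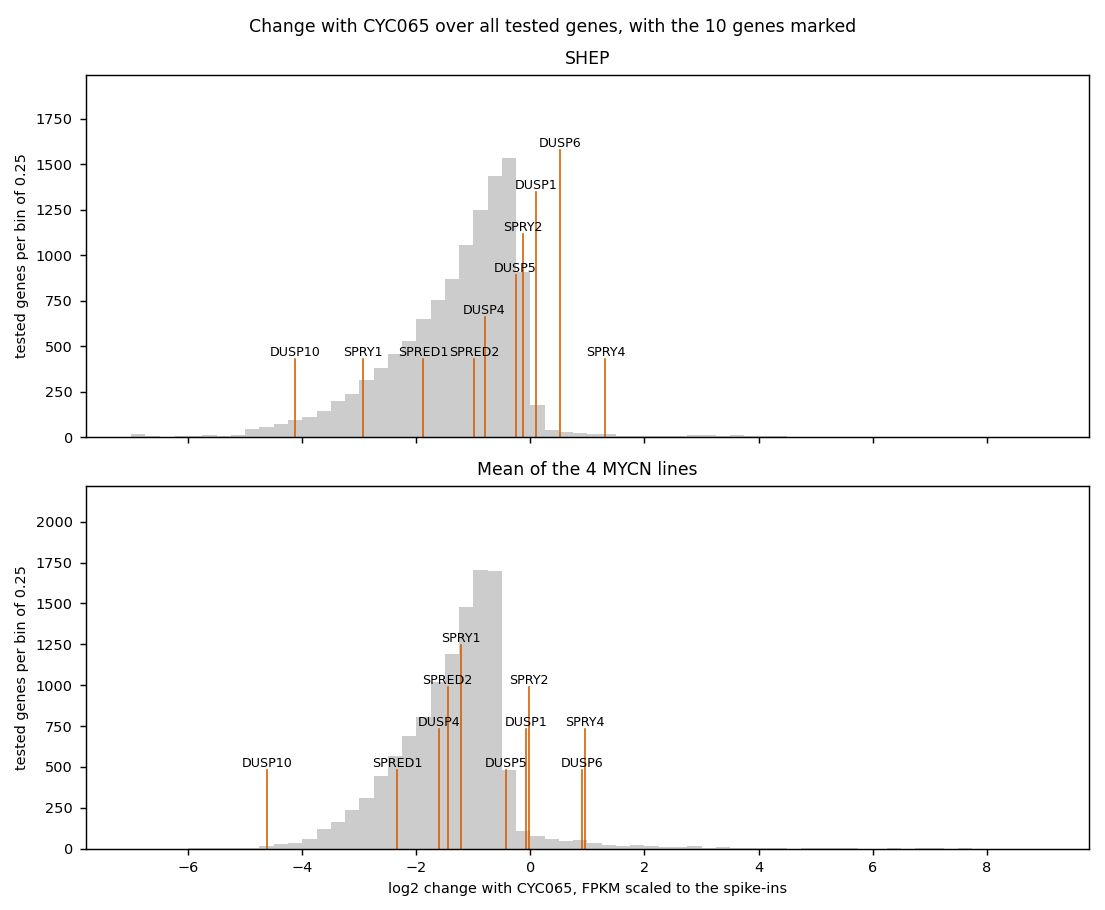
Number of tested genes (vertical axis, bins of 0.25) by their log2 change with CYC065 on spike-in scaled FPKM (horizontal axis) in SHEP and in the mean of the 4 MYCN lines, with the 10 genes marked by lines whose height has no meaning. DUSP6 and SPRY4 lie to the right of 0 in both panels, with DUSP10 far to the left.

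The bases before the DUSP6 start are printed because this gene rose in all lines while most mRNAs fell. The sequence is the 250 bases upstream of the start in the RefSeq promoter table, 5′ to 3′ on the gene's strand, and it matched the GRCh37 assembly once, at chr12:89746279-89746528 (minus strand). Capitals mark matches, on either strand, of the patterns searched: GGAAG (the core that ETS factors recognise), CCAAT (the CCAAT box), GGGCGG (the GC box), TGACGT (the cAMP response element core) and CACGTG (the E-box that MYC proteins are known to bind), together with TATAAA (the TATA box).
DUSP6: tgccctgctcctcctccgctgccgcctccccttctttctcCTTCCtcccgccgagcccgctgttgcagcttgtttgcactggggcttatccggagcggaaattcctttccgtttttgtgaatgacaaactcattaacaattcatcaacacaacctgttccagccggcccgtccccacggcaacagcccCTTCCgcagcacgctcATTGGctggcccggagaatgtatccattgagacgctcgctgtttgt
DUSP6 holds GGAAG at 2 places and CCAAT at 1. Among 35116 promoters of the same length, 65.1% hold GGAAG and 32.0% hold CCAAT, so both patterns are common. DUSP6 lies at chr12:89741012-89746278 (GRCh37, minus strand), and an annotated long noncoding RNA on the other strand covers this stretch. The libraries were counted by strand.

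DUSP10 fell furthest. Its enzyme acts mainly on JNK and p38 rather than on ERK. In SH-EP the 3 DMSO libraries had 23.0, 22.3 and 24.5 FPKM and the 3 CYC065 libraries 2.80, 3.13 and 3.36. The WT line had 9.87, 9.57 and 9.03 in DMSO and 0.466, 1.19 and 0.784 with CYC065. T58A cells had 5.77, 6.57 and 4.33 and then 0.420, 0.242 and 0.455. Treated and control libraries were separate in each, and treated SH-EP cells kept more DUSP10 mRNA than any treated MYCN line. S62A cells went from 8.73, 9.41 and 8.91 to 1.2, 1.01 and 0.496, and T58A S62A cells from 4.06, 6.67 and 4.85 to 0.30, 0.631 and 0.290. Spike-in scaled, the level was 17.5 times lower in SH-EP (log2 -4.13 ± 0.25, adjusted p = 8.82e-14) and 21.4 to 30.6 times lower in the MYCN lines (log2 -4.42 to -4.94, largest adjusted p over the 5 lines 1.56e-13). Only 0.207% to 2.40% of tested genes had a lower change. As deposited, the log2 change was -2.87 to -3.59, called lower in all 5 lines. The difference between lines in this response did not pass the test, with log2 differences from SH-EP of -0.81 to -0.29 and adjusted p of at least 0.0901. With a pseudocount of 1 in place of 0.1 the DUSP10 difference turned, to 0.50 in WT (adjusted p = 0.109), 0.89 in T58A (0.0220), 1.13 in S62A (0.00120) as well as 0.94 in T58A S62A (0.00793), so no direction can be given for it.

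Its upstream bases are shown with the same patterns in capitals, since this gene fell with CYC065 and was also lower in each MYCN line. The stretch lies at chr1:221915432-221915681 (GRCh37, minus strand), before the more upstream of 2 RefSeq starts.
DUSP10: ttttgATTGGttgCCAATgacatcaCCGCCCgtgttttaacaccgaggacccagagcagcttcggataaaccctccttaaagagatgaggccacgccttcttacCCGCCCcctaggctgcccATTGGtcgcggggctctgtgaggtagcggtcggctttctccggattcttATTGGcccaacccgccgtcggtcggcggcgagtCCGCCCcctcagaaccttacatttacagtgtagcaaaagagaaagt
It holds CCAAT at 4 places and GGGCGG at 3. Of all promoters of this length, 42.6% hold GGGCGG at least once. DUSP10 itself spans 40.7 kb at chr1:221874766-221915431.

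SPRED1 also fell on both scales. SPRED1 and SPRED2 bring neurofibromin, the RAS inactivator, to the membrane. SPRED1 was at 7.73, 7.86 and 7.23 FPKM in SH-EP in DMSO and at 4.66, 4.74 and 5.17 with CYC065. In S62A, the line with the largest change, it was at 10.9, 9.14 and 9.81 and then 3.84, 3.84 and 4.15. In the other 3 lines it ranged over 6.65 to 9.82 FPKM in DMSO and 3.54 to 5.07 with CYC065. Treated libraries were below DMSO libraries in all 5 lines. Spike-in scaled log2 changes were -1.88 to -2.73 (largest adjusted p 1.77e-09), and those on FPKM as deposited were -0.64 to -1.31.

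SPRED2 and DUSP4 were lower with CYC065 in all 5 lines only after spike-in scaling. DUSP4 is a nuclear phosphatase for ERK, JNK and p38. SPRED2 ranged over 8.71 to 12.4 FPKM in DMSO and 6.84 to 12.8 with CYC065. Its spike-in scaled log2 change was -0.91 to -1.93, while on the deposited scale it was called higher in SH-EP (0.26), lower in WT (-0.27) and T58A (-0.28), and neither in the other 2 lines. DUSP4 went from 3.2, 2.50 and 2.99 to 1.85, 1.45 and 1.66 FPKM in T58A, where the ranges were separate. In S62A it went from 11.1, 11.2 and 12.7 to 13.8, 14.4 and 14.4, which is separate in the other direction. Spike-in scaled log2 changes of DUSP4 were -0.80 in SH-EP, -2.0 in WT, -1.92 in T58A, -1.19 in S62A as well as -1.29 in T58A S62A, all called lower (largest adjusted p 0.00275). As deposited, DUSP4 was called higher in SH-EP (0.43) and S62A (0.29) and lower in WT (-0.39) and T58A (-0.77).

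DUSP1, DUSP5 and SPRY2 were higher with CYC065 in all 5 lines on FPKM as deposited and were called lower in only 1 or 2 lines after spike-in scaling. DUSP1 is an immediate early phosphatase for p38, JNK and ERK, DUSP5 is the nuclear phosphatase for ERK, and SPRY2 is the Sprouty protein best known for binding the ubiquitin ligase CBL. SPRY2 had 12.2, 12.4 and 9.68 FPKM in SH-EP in DMSO and 24.6, 24.0 and 25.8 with CYC065, and 10.6, 8.44 and 8.54 and then 30.9, 31.5 and 35.6 in S62A. DUSP1 had 11.2, 11.2 and 11.2 and then 27.2, 29.6 and 29.5 in SH-EP, and 29.3, 24.6 and 25.2 and then 77.1, 83.1 and 82.4 in S62A. Treated libraries were above DMSO libraries for all 3 genes in all 5 lines on this scale, and each was called higher there in every line. Of all tested genes, 42.7% were called higher on it in SH-EP and 37% to 38.8% in the MYCN lines. DUSP5 reached its highest levels in treated T58A S62A cells, at 45.6, 41.6 and 44.4 FPKM against 15.2, 17.9 and 16.6 in DMSO.

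On the spike-in scale these 3 genes were called in a minority of lines. DUSP1 was called lower in WT alone (log2 -0.55 ± 0.19, adjusted p = 0.00781), and its changes elsewhere were -0.22 to 0.36 with adjusted p from 0.0815 to 0.607. SPRY2 was likewise called lower in WT (-0.63 ± 0.21, adjusted p = 0.00550), with -0.13 to 0.33 in the other 4 lines. DUSP5 was called lower in WT (-1.17 ± 0.18, adjusted p = 1.48e-06) and T58A (-0.62 ± 0.18, adjusted p = 0.00326), and was at -0.26, -0.23 and 0.33 in SH-EP, S62A and T58A S62A. Of these calls, that of DUSP1 was lost without the WT DMSO library of column number 0 (adjusted p = 0.0709). That of SPRY2 was lost without the WT CYC065 library of column number 1 (0.0531), and that of DUSP5 in T58A without the T58A DMSO library of column number 2 (0.0515). DUSP5 in T58A was also lost with only the 21 high spike-ins (0.0976).

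In all, 5 of the 10 genes were called lower in SH-EP, 8 in WT, 6 in T58A, 5 in S62A as well as 5 in T58A S62A on the spike-in scale. Of all tested genes, 75.7%, 93.7%, 84.2%, 90.2% and 76.3% were called lower in the same lines. On FPKM as deposited, 7, 5, 5, 6 and 6 were called higher and 3, 4, 4, 2 and 2 lower. All tested genes were then called higher in 42.7%, 37%, 38.1%, 38.8% and 38.6%, and lower in 33.5%, 34.2%, 33.3%, 34.6% and 34.2%. Over the mean of the 4 MYCN lines, where 45.4% were called higher and 39.6% lower as deposited and 1.73% higher after spike-in scaling, the median spike-in scaled change of the 10 genes was -0.82, against -1.23 for all tested genes.

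**Figure D3:**
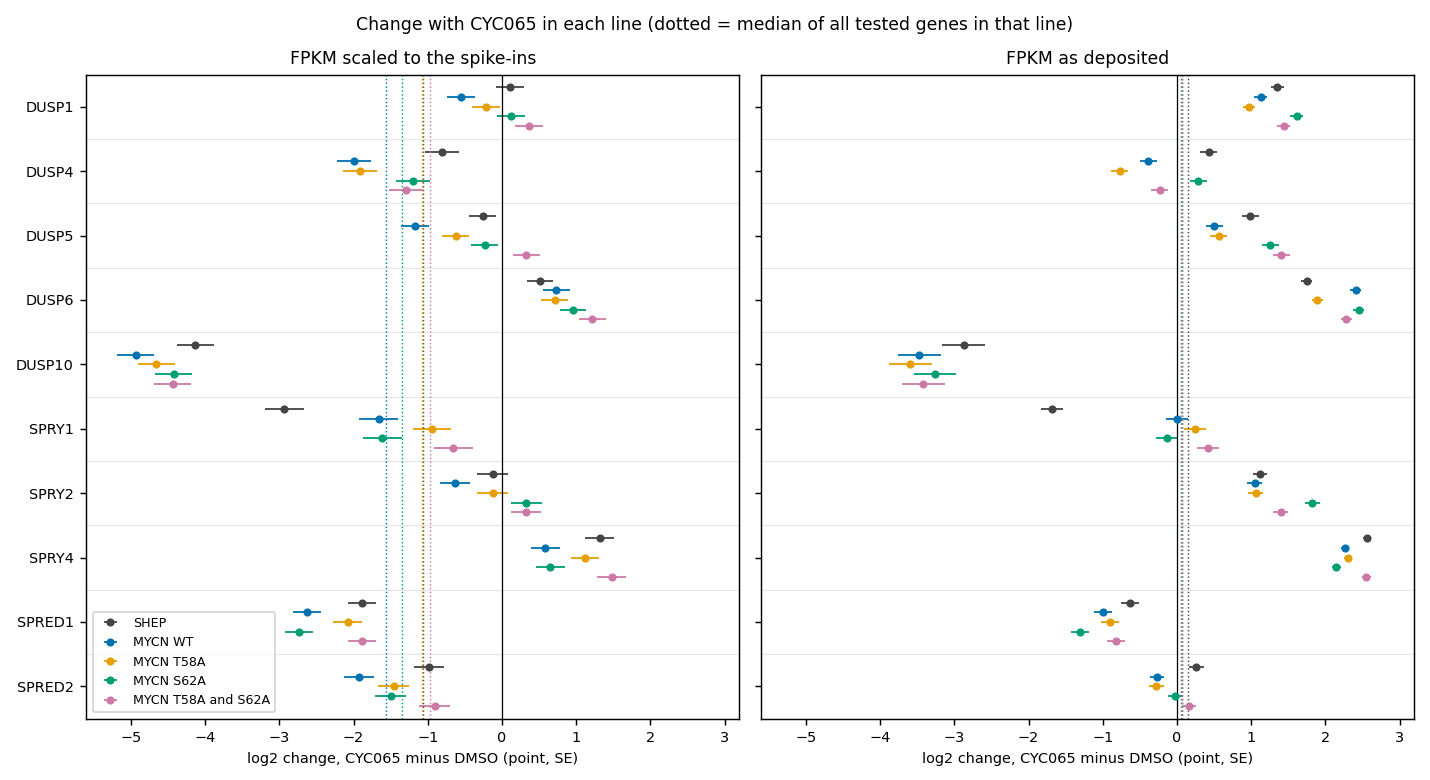
Log2 change with CYC065 (horizontal axis, point with SE, n = 3 libraries a group) of each gene (vertical axis) in the 5 lines, on spike-in scaled FPKM and on FPKM as deposited, with dotted lines at the median of all tested genes in each line. DUSP6 and SPRY4 are above 0 on both scales, DUSP10 and SPRED1 below 0 on both, and SPRY1 in SHEP lies apart from the MYCN lines.

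SPRY1 was the gene whose CYC065 response separated SH-EP from the MYCN lines. SPRY1 is the Sprouty family member that limits RET and FGF receptor signaling in development. In SH-EP it was at 14, 13.2 and 13.8 FPKM in DMSO and at 4.03, 5.25 and 3.46 with CYC065. In the WT line it was at 8.83, 10.8 and 10.7 and then 9.40, 10.3 and 10.7, and in T58A at 10.1, 7.19 and 11.5 and then 10.2, 11.6 and 11.7. SH-EP lost most of its SPRY1 mRNA, while treated and control ranges overlapped in WT and T58A. S62A had 12.1, 15.6 and 11 and then 11.1, 12.3 and 11.4, and T58A S62A 10.2, 9.38 and 8.25 and then 11.5, 12.4 and 13.2. Ranges overlapped in S62A, and treated libraries were the higher in T58A S62A. As deposited, all 12 treated MYCN libraries lay above the 3 treated SH-EP libraries. Spike-in scaled, treated SPRY1 levels were 4.05 to 7.55 in SH-EP, and were lower in S62A (3.2 to 3.51), overlapping in WT (3.71 to 4.48) and T58A (7.43 to 8.44) and higher in T58A S62A (8.62 to 12.8). On that scale SPRY1 in DMSO was 40.2 to 45.3 in SH-EP and 7.94 to 22.3 in the MYCN lines.

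Spike-in scaled, SPRY1 was 7.64 times lower with CYC065 in SH-EP (log2 -2.93 ± 0.26, adjusted p = 1.28e-10). It was 3.16, 1.92, 3.06 and 1.58 times lower in WT, T58A, S62A and the line with both replacements, the last lost in 4 of the 30 fits that left out 1 library (adjusted p up to 0.127). On FPKM as deposited SPRY1 was lower in SH-EP (-1.68) and higher in T58A S62A (0.41). The response minus that of SH-EP was 1.27 ± 0.37 in WT (adjusted p = 0.0340), 1.99 ± 0.37 in T58A (0.00235), 1.32 ± 0.37 in S62A (0.0355) as well as 2.28 ± 0.37 in T58A S62A (1.98e-04), all on the log2 scale. On FPKM as deposited the differences were 1.69, 1.92, 1.55 and 2.09, all called. These 4 differences share the SH-EP libraries. The differences in WT and S62A were lost in 7 and 10 of the fits that left out 1 library, with adjusted p of up to 0.0883 and 0.0956, while those in T58A and T58A S62A were kept in all 30. With the 21 high spike-ins the differences were 1.18 in WT (adjusted p = 0.147), 2.11 in T58A (0.0154), 0.99 in S62A (0.162) as well as 2.03 in T58A S62A (0.0153). A fit to only the groups compared lost the T58A difference (0.0927), and one with no filter on low genes lost those in WT (0.0503) and S62A (0.0513).

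The other response differences were few on the spike-in scale. DUSP4 (-1.2, adjusted p = 0.0287), DUSP5 (-0.91, 0.0326) and SPRED2 (-0.95, 0.0360) responded lower in WT than in SH-EP. In that line the median difference of all tested genes was -0.52. Each of the 3 calls was lost in 8 of the 30 fits without 1 library. Thus 4 of 10 genes were called in WT, with 18.1% of all tested genes, and 1 in each of T58A, S62A and T58A S62A, with 2.59%, 4.95% and 5.41%. On FPKM as deposited, 6, 5, 5 and 3 genes were called, with 28.6%, 23.9%, 24.6% and 25.4% of all tested genes. DUSP6 was among them, with a larger response than in SH-EP in WT (0.66), S62A (0.70) and T58A S62A (0.53). SPRY4 had a smaller one in WT (-0.29), T58A (-0.25) and S62A (-0.41). The spike-in scaled estimates for these 2 genes did not pass the test, with adjusted p of at least 0.125 for DUSP6 and 0.0577 for SPRY4.

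**Figure D4:**
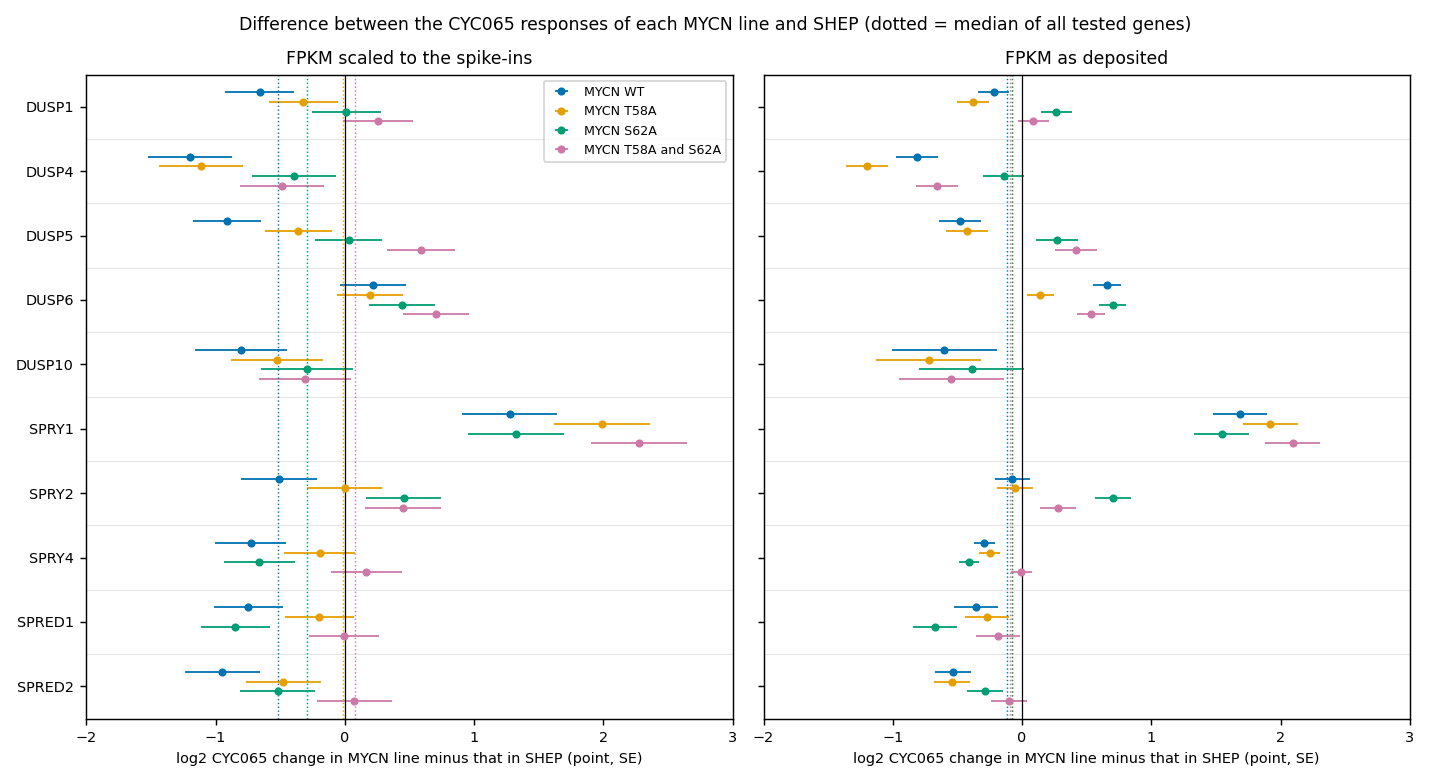
CYC065 log2 change in each MYCN line minus that in SHEP (horizontal axis, point with SE) for each gene (vertical axis), on spike-in scaled FPKM and on FPKM as deposited, with dotted lines at the median of all tested genes. SPRY1 lies between 1.27 and 2.28 on the spike-in scale, to the right of the other genes.

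The comparison of the MYCN lines with SH-EP in DMSO asked which of these genes differed when MYCN was added. On FPKM as deposited, DUSP1 was higher and DUSP10 lower in all 4 MYCN lines. DUSP1 was at 11.2, 11.2 and 11.2 FPKM in SH-EP, at 30.4, 30.1 and 28.4 in WT and at 18.3, 21.3 and 20.9 in T58A. In S62A it was at 29.3, 24.6 and 25.2, and in T58A S62A at 28.3, 19.7 and 23.0. All 12 MYCN libraries exceeded the SH-EP libraries, and WT was above T58A with no overlap. The differences from SH-EP were 2.63-fold in WT (log2 1.39 ± 0.09, adjusted p = 2.15e-12), 1.79-fold in T58A, 2.34-fold in S62A as well as 2.08-fold in T58A S62A (largest adjusted p 1.39e-08). Spike-in scaled, DUSP1 was lower in S62A (-0.72) and not called in the other 3 lines (-0.11 to 0.23), where most genes were called lower.

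DUSP1 carries the only E-box among the promoters of the 8 genes that the RefSeq table holds. It is shown with the same patterns in capitals, at chr5:172198199-172198448 (GRCh37, minus strand).
DUSP1: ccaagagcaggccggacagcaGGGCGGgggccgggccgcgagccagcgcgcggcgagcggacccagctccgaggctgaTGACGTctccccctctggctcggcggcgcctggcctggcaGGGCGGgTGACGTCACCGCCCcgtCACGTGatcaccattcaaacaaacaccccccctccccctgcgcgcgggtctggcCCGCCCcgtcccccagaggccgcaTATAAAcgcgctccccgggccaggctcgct
The stretch holds TGACGT at 3 places, of which 2 overlap as the 2 strands of 1 palindrome, CACGTG at 1, GGGCGG at 4 and TATAAA at 1. Across all promoters of this length the shares with a match are 7.10% for TGACGT, 6.34% for CACGTG and 10.7% for TATAAA. DUSP1 spans 3.1 kb at chr5:172195099-172198198, shorter than all but 4.0% of tested genes with a 3′ UTR of at least 100 bases.

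DUSP10 in DMSO was 2.44 times lower than SH-EP in WT, 4.19 times in T58A, 2.56 times in S62A as well as 4.50 times in T58A S62A, from the library values given above. The log2 differences were -1.29 ± 0.29 (adjusted p = 5.47e-04), -2.07 ± 0.29 (1.55e-06), -1.36 ± 0.29 (3.19e-04) and -2.17 ± 0.29 (7.04e-07). Spike-in scaled, they were -2.54, -3.03, -3.30 and -3.01, all called lower. Among the MYCN lines, T58A S62A was as deposited below WT (log2 -0.89, adjusted p = 0.0266) and below S62A (-0.81, 0.0336), while the other 4 pairs did not pass, with T58A minus WT at -0.78 (adjusted p = 0.0512) and S62A minus T58A at 0.71 (0.0618). Spike-in scaled, neither of the 2 differences was called (-0.47 and 0.29), and S62A was below WT (-0.76, adjusted p = 0.00955). The 2 deposited calls were each lost in 5 of the 30 fits without 1 library, with adjusted p of up to 0.125 and 0.146, and the second also with no filter on low genes (0.0547).

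On FPKM as deposited, DUSP4 and SPRY2 differed most between the MYCN lines, which also differed in MYCN level. DUSP4 was at 3.49, 3.31 and 3.21 FPKM in SH-EP, 4.25, 4.28 and 3.66 in WT and 3.2, 2.50 and 2.99 in T58A. It was at 11.1, 11.2 and 12.7 in S62A and at 5.32, 4.22 and 4.92 in T58A S62A. S62A thus had the highest deposited DUSP4 level of the 5 lines, with no overlap. Its log2 difference was 1.77 ± 0.11 from SH-EP (adjusted p = 3.31e-12) and 1.5 from WT (adjusted p = 7.60e-10). DUSP4 was also higher than SH-EP in T58A S62A (0.51, adjusted p = 4.53e-04) and WT (0.27, 0.0441), the last lost in 5 of the 30 fits without 1 library (adjusted p up to 0.135) and with no filter on low genes (0.0647). T58A did not pass (-0.20, 0.134). After spike-in scaling DUSP4 was not higher than SH-EP in any line. Its mean level was then 10.6 in SH-EP and 9.58 in S62A, with overlapping libraries, and the difference from SH-EP was -0.15 in S62A (adjusted p = 0.533), while T58A S62A was at -0.30 (0.234). DUSP4 was then lower in WT (-0.96) and T58A (-1.14). S62A was above WT (0.81) and T58A (1.0) on this scale too.

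SPRY2 had the reverse order among the single replacements. It was at 12.2, 12.4 and 9.68 FPKM in SH-EP, 18.7, 20.4 and 18.9 in WT, 23.8, 23.0 and 25.0 in T58A, 10.6, 8.44 and 8.54 in S62A, and at 13.2, 10.3 and 11.6 in T58A S62A. As deposited, WT and T58A lay above the other 3 lines without overlap. Differences from SH-EP were 0.76 ± 0.10 in WT (adjusted p = 5.21e-07) and 1.07 ± 0.10 in T58A (2.24e-09), against -0.31 ± 0.10 in S62A (0.00963) and 0.04 ± 0.10 in T58A S62A (0.779). Directly compared, S62A was below T58A by a log2 difference of -1.38 (adjusted p = 9.34e-11), and T58A was above WT by 0.31 (0.0247). Leaving out 1 library lost the S62A call against SH-EP in 4 of 30 fits (adjusted p up to 0.0592) and the T58A call against WT in 4 (up to 0.0909). After spike-in scaling SPRY2 was lower than SH-EP in WT (-0.49, adjusted p = 0.0299), S62A (-2.25) and T58A S62A (-0.79). T58A was at 0.12 (0.593), with libraries that overlapped SH-EP. S62A was again below T58A (-2.37), and T58A minus WT did not pass (0.61, 0.0627).

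On FPKM as deposited, the other 6 genes differed less. That order did not hold after spike-in scaling. The differences from SH-EP then ran from -2.74 to -0.98 for DUSP5 and from -2.04 to -1.39 for SPRY1. They ran from -0.72 to 0.23 for DUSP1, from -1.14 to -0.15 for DUSP4 and from -3.30 to -2.54 for DUSP10. As deposited, SPRY1 was lower than SH-EP in WT (-0.43), T58A (-0.53) and T58A S62A (-0.56), and DUSP5 in T58A (-0.52) and S62A (-0.79). DUSP6 and SPRY4 were both lower in S62A (-0.24 and -0.35) and in T58A S62A (-0.25 and -0.31). SPRY4 was slightly higher in T58A (0.15, adjusted p = 0.0319), and DUSP6 there was at 0.13 (adjusted p = 0.144). SPRED1 and SPRED2 were called higher in S62A and in no other line (0.38 and 0.32). Several of these small differences rested on 1 library. SPRY1 was lost in WT without the WT DMSO library of column number 0 (adjusted p = 0.0936) and in T58A without the T58A library of column number 1 (0.0568). DUSP6 was lost in S62A without the SH-EP library of column number 0 (0.0572) and in T58A S62A without that line's library of column number 0 (0.0560). SPRED1 was lost without the S62A library of column number 0 (0.0566), and SPRY4 in T58A in 3 of the 30 fits (up to 0.228). Counted over genes, 5 of 10 were called in WT, 6 in T58A, 9 in S62A as well as 6 in T58A S62A, beside 54.2%, 54.2%, 54.3% and 55.3% of all tested genes. The counts of higher and lower genes were 3 and 2, 3 and 3, 4 and 5, and 2 and 4 in the same order of lines. Of all tested genes 31.6%, 30.9%, 31% and 31.2% were higher and 22.6%, 23.3%, 23.4% and 24.1% lower. On the spike-in scale 9, 8, 9 and 8 were called lower and 0 higher by limma, beside 88.5%, 77.6%, 95% and 69.7% of all tested genes called lower. At an unadjusted p under 0.05 by limma the count of higher genes was also 0 in each line. The median log2 difference of all tested genes was then -0.75 to -1.86, against 0.05 to 0.07 as deposited.

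**Figure D5:**
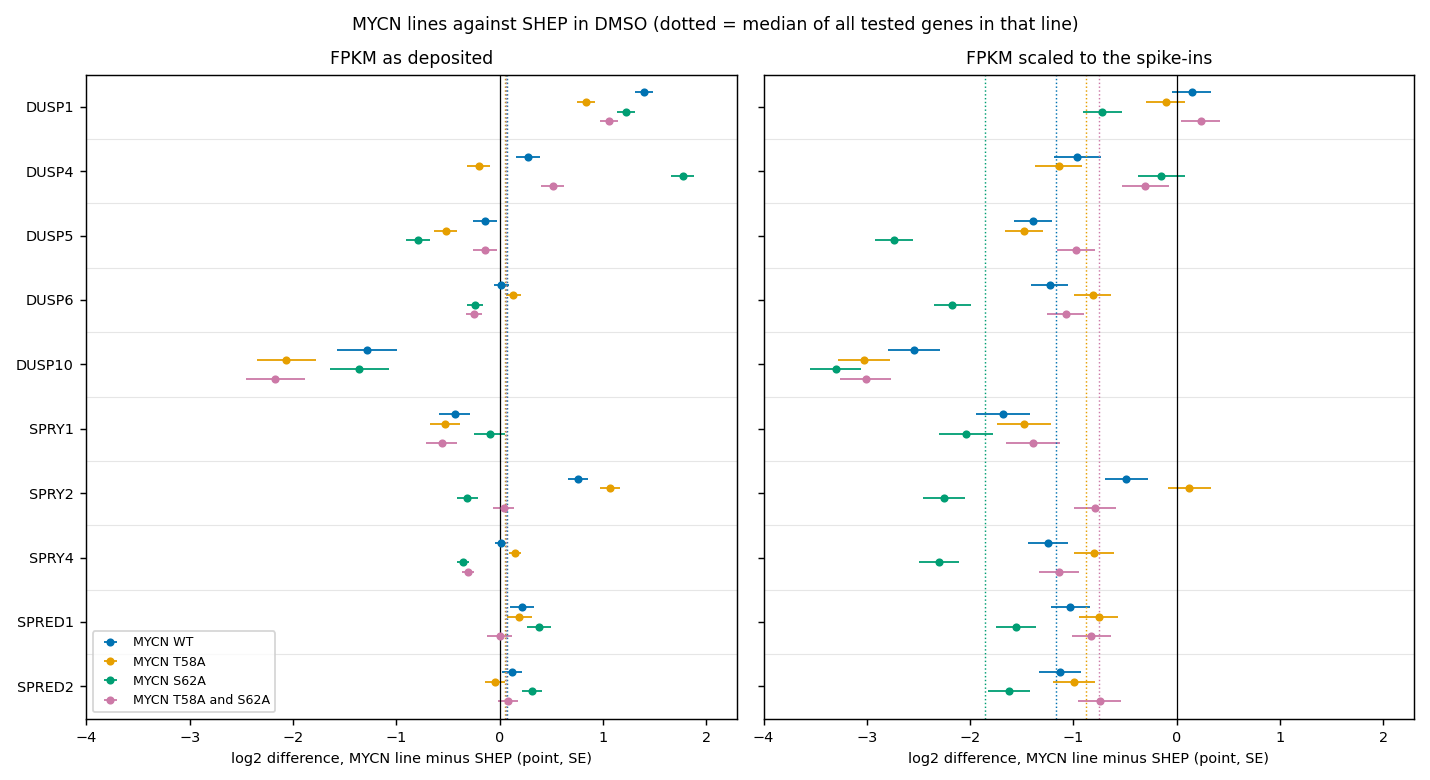
Log2 difference of each MYCN line from SHEP in DMSO (horizontal axis, point with SE) for each gene (vertical axis), on FPKM as deposited and on spike-in scaled FPKM, with dotted lines at the median of all tested genes. As deposited, DUSP1 is right of 0 and DUSP10 left of 0 in all 4 lines, and DUSP4 in S62A is at 1.77.

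Between the MYCN lines themselves, in 6 pairs, 32 of 60 gene and pair combinations were called as deposited. By pair these were 4 genes for T58A against WT, 5 for S62A against WT, 5 for T58A S62A against WT, 7 for S62A against T58A, 5 for T58A S62A against T58A and 6 for T58A S62A against S62A. The shares of all tested genes in the same order were 23.6%, 24.1%, 23.7%, 32.8%, 16.7% and 30.7%. Spike-in scaled, the counts in this order were 0, 9, 1, 9, 2 and 8, beside 8.59%, 75%, 24.2%, 88.4%, 2.74% and 90.7% of all tested genes. For T58A against WT, 3 genes were higher and 0 lower at an unadjusted p under 0.05 by limma on that scale, and none passed after adjustment. Of the 32 deposited calls 13 were kept in direction and call on that scale, 10 were lost and 9 changed sign. As deposited, SPRY2 was called in 6 of 6 pairs. DUSP4 was called in 5, with T58A S62A and WT not told apart (0.24, adjusted p = 0.135).

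Other genes of the same pathways were taken from fixed lists, which were also chosen with earlier results of these data known. Over the mean of the 4 MYCN lines with CYC065, spike-in scaled, 15 of 15 tested genes of the chain from RAS to ERK were lower, as were 8 of 8 of the JNK and p38 chain and 5 of 5 other feedback inhibitors, with 94.1% of all tested genes. SOS1, the exchange factor that loads RAS, was at -3.19 and SOS2 at -2.11. MAP2K4 (-3.44) and MAP2K7 (-3.2), the kinases that activate JNK, had the largest falls of their list. RASA1, a RAS inactivator, was at -2.52 and the ubiquitin ligase CBL at -2.13. The phosphatases DUSP16 (-2.61) and DUSP7 (-2.34) were lower as well, the only 2 tested of 5 listed. As deposited, 10 of the 15 RAS to ERK genes were higher and 4 lower, beside 45.4% and 39.6% of all tested genes. SOS1 was then at -1.93, and DUSP16 and DUSP7 were also lower at -1.35 and -1.0.

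Among 9 tested genes commonly induced by ERK, 7 were lower and 2 higher on the spike-in scale, with the same background. The 2 higher genes were IER3 (4.25, adjusted p = 1.10e-16), an immediate early gene, and EGR1 (1.51, 6.51e-14), an immediate early transcription factor that was named after its values were seen. IER3 was at 0.263 to 1.57 FPKM in S62A in DMSO and at 64.1 to 74.5 with CYC065. ETV5, an ETS factor under ERK control, was lower (-2.45), so ERK-induced genes outside the 10 moved in both directions. The median change was -0.93 for the RAS to ERK list, -1.18 for the JNK and p38 list, -1.82 for the other feedback inhibitors and -0.95 for the ERK-induced genes, against -1.23 for all tested genes. Of 9 genes for decay of AU-rich mRNA, 8 were lower (list median -0.88), led by ZFP36L2 (-1.78) and CNOT1 (-1.61). For the response difference from SH-EP, 2 of these 9 were higher, ZFP36L1 (1.40) and ZFP36L2 (0.97), and 2 ERK-induced genes lower, FOSL1 (-0.74) and IER3, for which no value is given because its SH-EP level in DMSO was near 0, with 6.1% of all tested genes called.

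In DMSO the same lists differed between the MYCN lines and SH-EP in both directions, beside 34.6% of all tested genes higher and 26.3% lower in the mean of the 4 lines. Of the RAS to ERK chain 7 of 15 were higher and 3 lower, with the adaptor SHC1 at -0.93. Of the JNK and p38 chain 4 of 8 were higher and 2 lower, with MAP2K6 at -1.15 and MAP2K3 at 0.97, both activators of p38. DUSP16 (1.01) and DUSP7 (0.54) were higher, in contrast to DUSP10. Among ERK-induced genes 4 of 9 were higher and 4 lower, with ETV1 at -1.49, and IER3 was listed at 0 in 1 SH-EP library and at no more than 0.102 FPKM in the others. The feedback inhibitor ERRFI1, which blocks the EGF receptor, was higher (0.61) and RASA1 lower (-0.21). Of the 5 mesenchymal markers 4 were lower and 1 higher. Of the AU-rich decay genes 6 of 9 were higher and 1 lower, with CNOT7 at 0.62 and KHSRP at 0.45. Spike-in scaled, 15 of 15 RAS to ERK genes, 7 of 8 JNK and p38 genes and 9 of 9 AU-rich decay genes were called lower. In the same comparison 91.2% of all tested genes were called lower.

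The 10 genes varied in length and in 3′ UTR makeup. Their spans in GRCh37 ran from 3.1 kb for DUSP1 and 5.15 kb for SPRY2 to 104 kb for SPRED1 at chr15:38545037-38649450 and 122 kb for SPRED2 at chr2:65537985-65659771. The reference was the 9735 tested genes with a 3′ UTR of at least 100 bases. Their canonical transcripts had a median span of 29.2 kb. DUSP6 spans 5.27 kb, SPRY1 6.97 kb at chr4:124317950-124324915 and SPRY4 16.0 kb at chr5:141689992-141706020. The 9735 genes were grouped by the span of the canonical transcript. In the mean of the 4 MYCN lines their median spike-in scaled change was -1.10 under 10 kb and -1.24 from 10 to 30 kb. It was -1.34 from 30 to 100 kb and -1.40 at 100 kb or more. The pentamer ATTTA is the core of AU-rich elements that shorten mRNA life. It occurred 6.01 times per kb of 3′ UTR in DUSP1, more than in 94.6% of the 9735 genes. It occurred 4.30 times in SPRED1 and 0 times in DUSP5. SPRY4 had 2.12 per kb and DUSP6 0.495, around a median of 1.87. By this density the median change of the 9735 genes was -1.2 below 1 per kb and -1.44 from 1 to 2. It was -1.29 from 2 to 4 and -1.25 at 4 or more per kb. In SH-EP it was -0.91, -1.21, -1.16 and -1.14 over the same steps. These are descriptions, and neither length nor ATTTA density was tested against the response.

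Across the 10 group means of deposited log2 levels, the genes closest in pattern by Pearson's r were TYRO3P (r = 0.991) and LINC00926 (r = 0.989) for DUSP6, RPA1 (r = 0.993) and CD200R1 (r = 0.992) for SPRY4 and SYTL3 (r = 0.996) and PFKFB4 (r = 0.991) for DUSP10. For DUSP1 they were RSL24D1 (r = 0.995) and CCNC (r = 0.987), and for SPRED1 RSF1 (r = 0.987) and USP22 (r = 0.987). The remaining genes had looser neighbours, GPRC5A (r = 0.961) and GGT5 (r = 0.908) for DUSP4, SKIV2L (r = 0.960) and TRAPPC5 (r = 0.957) for DUSP5, RGMB (r = 0.973) and SUMO2 (r = 0.972) for SPRY2, TIGD1 (r = 0.920) and DNAJB9 (r = 0.913) for SPRY1 and NUDT7 (r = 0.902) and SP3 (r = 0.866) for SPRED2. These values describe 10 points that share lines, treatment and the scaling of each library. Within the 10 genes, DUSP6 and SPRED1 ran opposite to each other (r = -0.967), as did SPRY4 and SPRED1 (r = -0.932).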

How the data were processed

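Poly(A) RNA from 30 libraries was sequenced after ERCC spike-in RNAs had been added by cell number. The authors aligned reads with HISAT2 to hg19 and made the deposited FPKM values with Cufflinks in strand-aware mode, and the annotation is not given in the sources used here. All 26228 genes and 92 spike-ins were read. Values were taken as log2(FPKM + 0.1), so fold changes of low genes are understated. Genes averaging 1 FPKM or more (11575) entered 1 limma 3.58.1 fit (R 4.3.3, lmFit and eBayes with trend) over the 10 groups, with Benjamini-Hochberg adjustment per comparison and a threshold of 0.05. For the CYC065 comparisons, libraries were scaled to equal medians of 55 spike-ins averaging 1 FPKM or more. Libraries are named by the number in their column header. Absolute read depth is unknown, so no counting intervals are given. Gene positions came from GENCODE 44 mapped to GRCh37 and promoters from the RefSeq table (GRCh38.p14), and the printed stretches were located in GRCh37 by exact match. Named genes were the 10 members and, in each pathway list and comparison, the 2 called genes with the largest change, of which 1 is not reported here. The members and lists were chosen with earlier results of these data known. The script was tested on simulated data.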

Additional observations from a re-analysis of the deposited data

Results flagged for a closer look

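The CYC065 response differed from that of SH-EP, by the interaction term of the limma fit on spike-in scaled values, for 4 of the 10 genes in at least 1 MYCN line. SPRY1 responded higher by a log2 difference of 1.27 in WT cells and of 1.99 with T58A, of 1.32 with S62A and of 2.28 with both replacements. DUSP4 responded lower in WT, at -1.20, as did DUSP5 at -0.91 and SPRED2 at -0.95. The median WT difference of all tested genes was itself -0.52. The same test called 18.1% of all tested genes in the WT line. It called between 2.59% and 5.41% of them in each other MYCN line. All 7 differences share the SH-EP libraries. The calls in WT and S62A were lost in 7 to 10 of the 30 fits that left out 1 library.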

How the results depend on the processing

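Of 40 comparisons of a gene in a MYCN line with SH-EP in DMSO 26 were called, of 60 between MYCN lines 32, of 50 with CYC065 39 and of 40 response differences 7. The shares of all tested genes called in either direction were 54.2% to 55.3% for lines and 16.7% to 32.8% for pairs. They were 76.6% to 94.5% for CYC065 and 2.59% to 18.1% for response differences. Requiring a 1.5-fold change left 12 line calls and 12 pair calls. The response differences numbered 4 with no filter, 19 on FPKM as deposited, 17 with libraries centred on their median and 2 with the 21 spike-ins of at least 50 FPKM, an alternative chosen after seeing the data, both of SPRY1 (T58A and T58A S62A). Fits to only the groups compared lost 4 line, 12 pair, 2 CYC065 and 2 response calls. Leaving out 1 library gave 2 to 12 response differences, 38 to 40 CYC065 calls, 27 to 34 pair calls and 23 to 26 line calls, and the lone remaining pair of a group shared the spread of all groups.

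Scaling turned several directions. Over the mean of the 4 MYCN lines against SH-EP, spike-in scaling gave -0.11 for DUSP1, -0.64 for DUSP4, -0.85 for SPRY2, -1.04 for SPRED1 and -1.12 for SPRED2. For CYC065 over that mean, deposited and centred values were 1.29 and 1.46 for DUSP1, 0.93 and 1.10 for DUSP5, 0.13 and 0.30 for SPRY1 and 1.33 and 1.5 for SPRY2, and 0.068 centred for SPRED2. In SH-EP they were 0.43 and 0.57 for DUSP4, 0.99 and 1.12 for DUSP5, 1.12 and 1.26 for SPRY2 and 0.26 and 0.40 for SPRED2. The SPRY2 CYC065 mean ran from -0.091 to 0.016 without 1 library, and its response difference was -0.045 with the high spike-ins. The response difference of DUSP10 was 0.86 with a pseudocount of 1, which exceeds its treated spike-in scaled levels in the MYCN lines and caps their fall. Apart from the scaling, the cause was not tested. No paired analysis was possible because the column numbers do not match the replicate numbers of the sample titles. CYC065 libraries were the shallower, which limits low values such as those of DUSP10.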
